A study of Drosophila melanogaster with 21 samples.

Results

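The vitelline membrane is the inner layer of the fly eggshell, and 10 of its genes were followed here by name: Vm26Aa, Vm26Ab, Vm26Ac, Vm32E, Vm34Ca, Vml, psd, fs(1)N, fs(1)M3 and ndl. All 10 were found in the ovary table among its 13955 genes, and all 10 passed the low-count filter there. The genes were listed by name for their role in the inner eggshell, with earlier results of these data known.

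Follicle cells, the somatic layer around the growing oocyte, secrete most vitelline membrane proteins during mid-oogenesis, and the proteins are later cross-linked into a continuous layer beneath the outer eggshell, the chorion. A few components are made by the oocyte itself. The layer keeps the egg from drying or collapsing, and it also holds cues that the embryo later reads to place its ends and its ventral side.

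The series asked what the zinc-finger transcription factor CG11247, also named Saft, does to gene expression. In flies, independent CRISPR-Cas9 frame-shift alleles were made in an isogenised white stock, which served as wild type: mutant 1 lacks 1 bp in exon 1 and mutant 2 lacks 2 bp in exon 2. The stock descriptions list each mutant over the third-chromosome balancer TM3, Sb, and no source used here says if the females dissected carried the allele on both chromosomes. Mated females 3 to 4 days old, kept at 25 °C, gave 9 ovary libraries (5 ovary pairs each, 3 libraries per genotype) and 6 brain libraries (40 brains each, 2 per genotype). The other 6 libraries came from clone 9C of the embryo-derived Schneider S2 line, which carries OsTir1 and a FLAG-AID tag on both copies of CG11247, so that auxin leads to loss of the protein. Auxin at 500 µM was given for 24 h in 2 libraries and for 48 h in another 2, and the last 2 got the solvent alone. The replicates are described as biological, but nothing says that they were separate dissections or cultures, so the p-values speak only for the spread among these libraries.

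Ovary libraries held 14.1 to 21.5 M counts, brain libraries 39.0 to 45.6 M and S2 libraries 6.42 to 9.15 M. The germline gene osk stood at 1242 ± 73.9 counts per M (CPM, SD, n = 3) in wild-type ovary, and the neuronal gene elav at 623 ± 15.9 CPM (n = 2) in wild-type brain. CG11247 RNA was 62.8 CPM in wild-type ovary, 30.1 CPM in mutant 1 (log2 fold change -1.06 ± 0.06 SE, edgeR adjusted p = 1.3e-07) and 72.6 CPM in mutant 2 (0.21 ± 0.06, adjusted p = 0.0349). The RNA level does not report on the protein of a frame-shift allele.

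In the annotation of build BDGP6, 6 of the 10 genes lie on chromosome arm 2L, 3 on X and 1 on 3L. Vm26Ab (2L:5957004-5957639, plus strand), Vm26Ac (2L:5958005-5958631, minus strand), Vm26Aa (2L:5959596-5960340, minus strand) and psd (2L:5963087-5964951, minus strand) form a cluster. Vm32E (2L:11171167-11171665) and Vm34Ca (2L:13411141-13411631) stand alone on the same arm, both on the minus strand. The X-linked genes are Vml (X:2275822-2277781, plus strand), fs(1)N (X:1322513-1329438, plus strand) and fs(1)M3 (X:5958207-5964247, minus strand), and ndl lies at 3L:6593938-6603366 on the minus strand. The annotation gives 6 of them, namely Vm26Aa, Vm26Ab, Vm26Ac, Vm32E, Vm34Ca and Vml, a single exon. The deposited values come from build dm3, so these positions describe the genes and were not used for counting.

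Wild-type ovaries differed widely in how much RNA they held for each gene. Per kb of transcript, Vm26Aa stood highest with a level of 3722 ± 244 CPM per kb (SD, n = 3), followed by Vm34Ca with 2351 ± 271 and Vm26Ab with 936 ± 154. Lower levels per kb were measured for Vm32E (396 ± 19.4), Vml (226 ± 23.0), Vm26Ac (125 ± 9.07), psd (94.5 ± 4.20), fs(1)M3 (88.6 ± 1.12), fs(1)N (88.4 ± 0.371) and ndl (60.8 ± 4.10). The library ranges of psd and fs(1)M3 overlapped, as did those of fs(1)M3 and fs(1)N, so these neighbours were not separated by their spread. All other neighbours in this order had ranges that did not overlap. The short structural genes therefore led and the long multi-exon genes fs(1)N, fs(1)M3 and ndl closed the order. Together the 10 genes held 0.654% to 0.699% of all counts in wild-type ovary libraries, 0.517% to 0.559% in mutant 1 and 0.535% to 0.591% in mutant 2. Both mutants lay below wild type in every library.

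Vitelline membrane RNA was lower in mutant ovaries, and the size of the difference varied from gene to gene. In mutant 1, 7 of the 10 genes fell (Vm26Aa, Vm26Ac, Vm32E, Vm34Ca, fs(1)N, fs(1)M3 and ndl) and 0 rose, where 11.2% of the 8312 genes tested in ovary were called lower and 12.2% higher in that comparison. In mutant 2, 5 genes fell (Vm26Ac, Vm32E, Vm34Ca, fs(1)N and ndl) and 0 rose, where 7.35% of all genes were called lower and 8.77% higher. A gene was called when its adjusted p in edgeR's quasi-likelihood test was under 0.05. The 10 genes were chosen with earlier results of these data known, so their counts beside these shares are a description and no test. The fitted change was negative for all 10 genes in each comparison. The median log2 change of the members was -0.36 in mutant 1 and -0.40 in mutant 2, beside 0.01 and 0.00 over all genes tested. Both comparisons use the same 3 wild-type libraries, so they are not independent of each other. These are bulk samples, in which fewer cells of a type and less RNA per cell cannot be told apart.

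**Figure D1:**
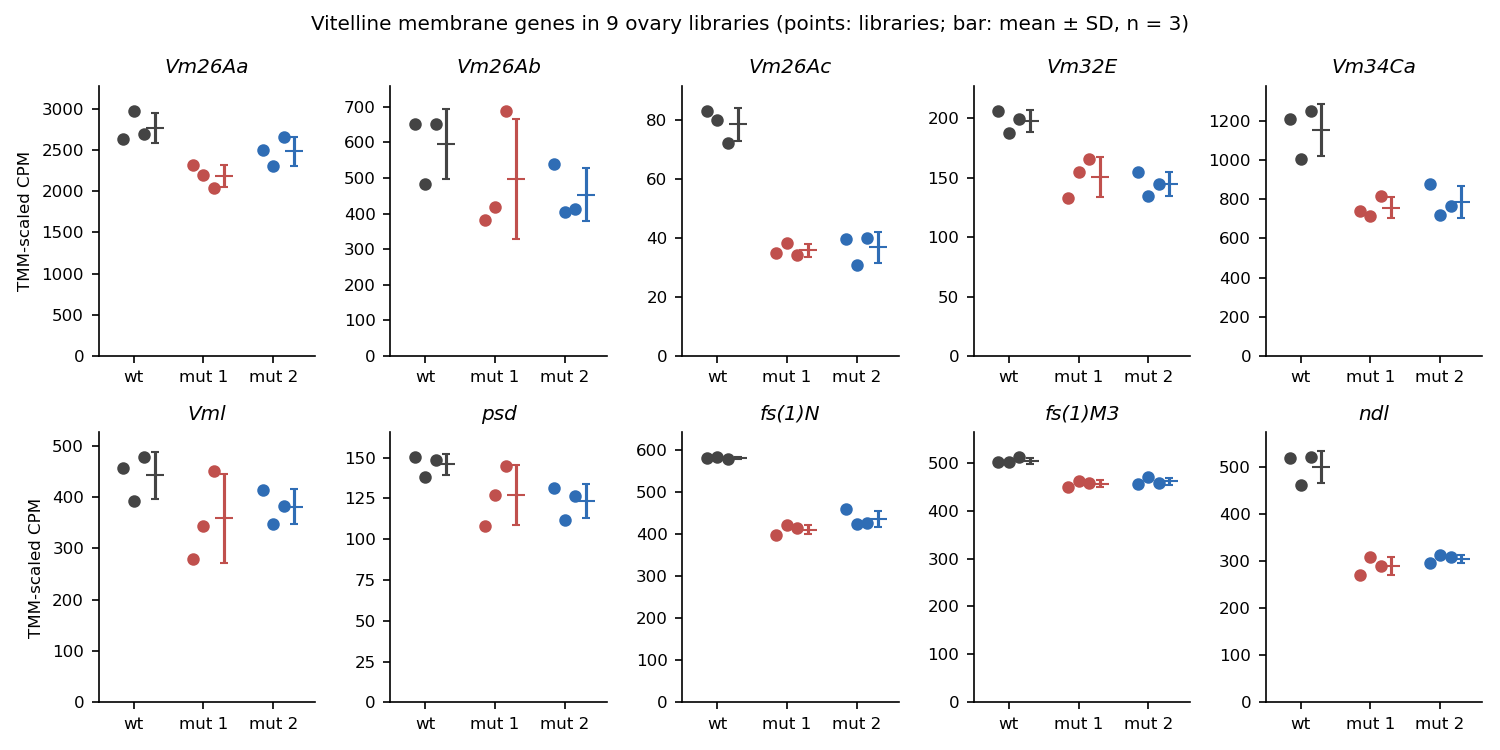
Level of each of the 10 genes in the 9 ovary libraries, in TMM-scaled CPM from 0; points are libraries, and the bar beside them gives the mean ± SD of 3 libraries. For Vm26Ac, Vm32E, Vm34Ca, fs(1)N, fs(1)M3 and ndl, all 6 mutant libraries lie below the lowest wild-type library. The share of all tested genes with such a separation is not given here, so this describes the named genes only.

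**Figure D2:**
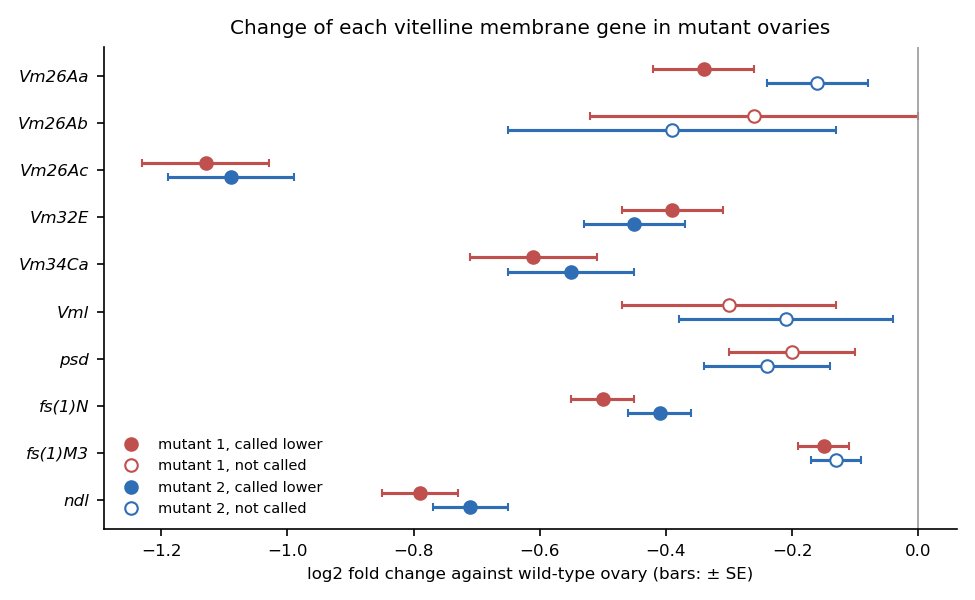
Log2 fold change of each gene against wild-type ovary, with bars of ± 1 SE; filled points passed an adjusted p of 0.05 and open points did not. Vm26Ac lies farthest from 0 at -1.13 and -1.09, and fs(1)M3 nearest among the called genes at -0.15.

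Among the structural proteins, Vm26Ac, a member of the Vm26A cluster that encodes a vitelline membrane protein, had the largest change of the 10 in both mutants. Its wild-type libraries held 83.3, 80.2 and 72.3 CPM, the mutant 1 libraries 34.8, 38.5 and 34.4 CPM, and the mutant 2 libraries 39.6, 30.8 and 40.1 CPM. Every mutant library was far below every wild-type library, and the mutants overlapped each other. Vm26Ac fell by 1.13 ± 0.10 on the log2 scale in mutant 1 (edgeR adjusted p = 8.4e-06) and by 1.09 ± 0.10 in mutant 2 (adjusted p = 1.0e-05), a loss of 54.3% and 53.2% of the mean level. Per kb of transcript it stood at rank 6 of the 10 genes in wild type and at rank 9 in both mutants, where its mutant 1 range overlapped that of fs(1)N. Per kb of coding sequence its rank was 8 in mutant 1 and 9 in mutant 2.

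Vm34Ca, which encodes an abundant structural protein of the layer, held 1208, 1003 and 1253 CPM in wild type, 740.5, 713.5 and 818 CPM in mutant 1, and 877.5, 719 and 763 CPM in mutant 2. No mutant library reached the lowest wild-type library. The gene fell by 0.61 ± 0.10 in mutant 1 (adjusted p = 0.0014) and by 0.55 ± 0.10 in mutant 2 (adjusted p = 0.00293) on the log2 scale in edgeR.

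Vm32E encodes a small protein known in both the vitelline membrane and the inner chorion. It held 206.5, 187 and 199 CPM in wild type, 133, 154.5 and 165 CPM in mutant 1, and 155, 135 and 145 CPM in mutant 2. The groups did not overlap with wild type. It fell by 0.39 ± 0.08 in mutant 1 (adjusted p = 0.00608) and by 0.45 ± 0.08 in mutant 2 (adjusted p = 0.00306). Without both mutant 2 libraries with the highest muscle markers, a choice made after seeing the data, the mutant 2 change kept its value of -0.45 with a wider SE of 0.12 (edgeR adjusted p = 0.0716, not called). That fit leaves 1 mutant 2 library, whose spread is assumed to equal that of the other groups.

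Vm26Aa, a major structural gene and the most abundant of the 10, gave different calls in the mutants. Its wild-type libraries held 2638, 2979.9 and 2700.4 CPM, the mutant 1 libraries 2315, 2201 and 2042 CPM, and the mutant 2 libraries 2497, 2301 and 2655 CPM. All of mutant 1 lay below wild type, while the highest mutant 2 library passed the lowest wild-type library. Vm26Aa fell by 0.34 ± 0.08 in mutant 1 (edgeR adjusted p = 0.00889). The mutant 2 value was -0.16 ± 0.08 (adjusted p = 0.166).

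Vm26Ab, another major structural gene whose product is needed for a sound eggshell, had a wide spread between libraries. It held 652, 482 and 652 CPM in wild type, 383, 419 and 689.6 CPM in mutant 1, and 539.9, 405 and 414 CPM in mutant 2. Replicate 3 of mutant 1 was the highest of all 9 libraries, and the groups overlapped in both comparisons. The log2 changes were -0.26 ± 0.26 (edgeR adjusted p = 0.497) and -0.39 ± 0.26 (adjusted p = 0.325), and the interval of 2 SE around the first runs from -0.77 to 0.25. Leaving out replicate 3 of mutant 1 moved the mutant 1 value to -0.57 ± 0.18 (adjusted p = 0.094), and leaving out replicate 1 or 2 of mutant 1 moved it to -0.10 ± 0.27 or -0.15 ± 0.29, with no call in any of these fits.

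The Vm26A cluster on 2L therefore held neighbours with unlike values. Vm26Ac lies between Vm26Ab and Vm26Aa. Counted from the first base of Vm26Ab, Vm26Ab ends at 0.635 kb, Vm26Ac spans 1.001 to 1.627 kb and the near end of Vm26Aa lies at 2.592 kb. The count ratio of Vm26Ac to Vm26Aa, which no scaling of libraries can move, was 0.0316, 0.0269 and 0.0268 in wild type and between 0.0134 and 0.0175 in the 6 mutant libraries. This ratio was chosen after its values were seen and was not tested. The annotation places CG9044, CG13999 and CG13998 on one side of the cluster and CG13992, Ucp4C and Ucp4B on the other. Of these 6 neighbours, 4 were tested. In each mutant 1 of the 4 was called lower, beside 11.2% of all genes in mutant 1 and 7.35% in mutant 2. CG13992 fell in both mutants, from 63.2 CPM to 49.9 CPM (-0.34 ± 0.09, edgeR adjusted p = 0.0151) and 50.8 CPM (-0.31 ± 0.08, adjusted p = 0.0293). CG9044 changed by -0.02 ± 0.07 and -0.08 ± 0.07, CG13998 by -0.65 ± 0.25 and -0.54 ± 0.25, and Ucp4C, near the detection limit, by 0.08 ± 0.56 and 0.37 ± 0.55, with no call for any of them.

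**Figure D3:**
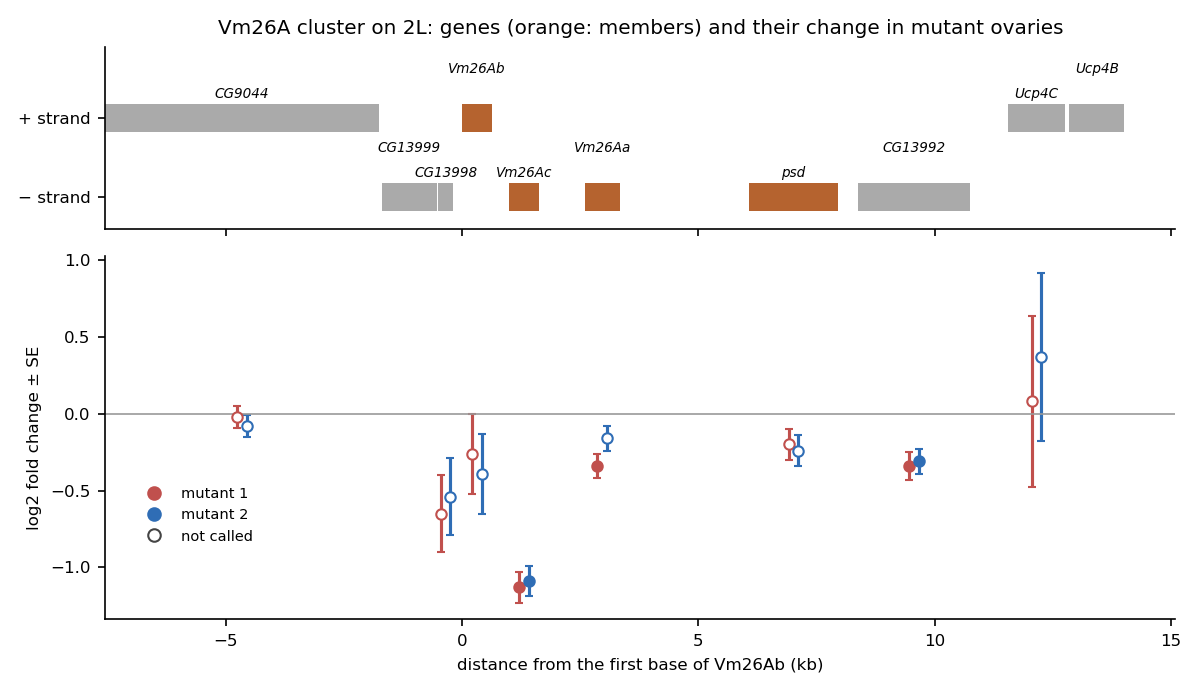
The Vm26A cluster drawn to scale by distance from the first base of Vm26Ab (kb), with genes by strand above and log2 fold change ± SE in mutant ovaries below, filled where called. Vm26Ac at -1.13 and -1.09 lies between neighbours with changes of -0.16 to -0.39.

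Vml, a vitelline membrane-like protein known as a substrate of the sulfotransferase Pipe in dorsoventral patterning, held 457, 392 and 478 CPM in wild type, 280.3, 343 and 452 CPM in mutant 1, and 414, 347 and 384 CPM in mutant 2. The groups overlapped. Neither change passed the test (-0.30 ± 0.17, edgeR adjusted p = 0.218, and -0.21 ± 0.17, adjusted p = 0.398).

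psd (palisade), needed for the early assembly of vitelline membrane proteins outside the follicle cells, held 150.4, 138 and 149 CPM in wild type, 108, 127 and 145 CPM in mutant 1, and 132, 112 and 127 CPM in mutant 2. Mutant 1 overlapped wild type through its replicate 3, and mutant 2 did not overlap. The changes were -0.20 ± 0.10 (edgeR adjusted p = 0.156) and -0.24 ± 0.10 (adjusted p = 0.108), neither called. Without replicate 3 of mutant 1, Vml (-0.50 ± 0.11, adjusted p = 0.0221) and psd (-0.31 ± 0.08, adjusted p = 0.0337) were both called in mutant 1. With only wild type and mutant 2 in the fit, psd was called in mutant 2 (adjusted p = 0.0249).

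ndl (nudel), a large follicle-cell protease needed for cross-linking of the layer and for the cascade that sets the ventral side, held 519, 462 and 521 CPM in wild type, 269.8, 309 and 290.1 CPM in mutant 1, and 296, 312 and 308 CPM in mutant 2. The wild-type libraries stood well above all 6 mutant libraries. ndl fell by 0.79 ± 0.06 in mutant 1 (edgeR adjusted p = 3.7e-06) and by 0.71 ± 0.06 in mutant 2 (adjusted p = 8.8e-06), and its mean level fell by 42.1% and 39.0%.

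fs(1)N (nasrat) encodes a large protein secreted by the oocyte that is needed for the integrity of the layer and for activation of the terminal receptor Torso. It held 582, 584 and 579 CPM in wild type, 399, 421 and 414 CPM in mutant 1, and 459.6, 426 and 427 CPM in mutant 2. Its 3 wild-type libraries were nearly equal and far above the mutants. It fell by 0.50 ± 0.05 in mutant 1 (edgeR adjusted p = 2.3e-05) and by 0.41 ± 0.05 in mutant 2 (adjusted p = 1.3e-04).

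fs(1)M3 (polehole), the related oocyte protein that acts with fs(1)N, held 501, 500.3 and 512 CPM in wild type, 448, 462 and 458 CPM in mutant 1, and 455, 469.9 and 458 CPM in mutant 2. All mutant libraries lay below wild type by a narrow margin. It fell by 0.15 ± 0.04 in mutant 1 (edgeR adjusted p = 0.0358), a call that was lost when any one of the 6 libraries of wild type and mutant 1 was left out (adjusted p from 0.0726 to 0.0933). The mutant 2 value was -0.13 ± 0.04 (adjusted p = 0.066), and DESeq2 called it (adjusted p = 0.00813). The count ratio of ndl to fs(1)M3, also chosen after its values were seen and not tested, was 1.04, 0.923 and 1.02 in wild type and between 0.602 and 0.672 in the 6 mutant libraries.

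The values of 3 members share their ground with other genes in the annotation, and no source used here says if reads were assigned by strand. ndl overlaps MCU on the other strand. MCU stood at 92.2 CPM in wild-type ovary and changed by 0.11 ± 0.06 in mutant 1 and 0.12 ± 0.06 in mutant 2, neither called. fs(1)M3 overlaps CG6067 on the other strand, which held 1.32 CPM in wild-type ovary. Vm32E lies within Ca-beta on the same strand, and the level of Ca-beta in the tissues was not analysed here. Short family members such as Vm26Aa, Vm26Ab, Vm32E and Vm34Ca also share a conserved domain, and how the counting split any reads common to them is not known.

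No member differed between the mutants by the test. Of all genes tested, 0.012% were called in the direct comparison of mutant 2 with mutant 1, which was CG11247 itself, higher in mutant 2 by 1.27 on the log2 scale. Among the 10 members, 0 were called by edgeR and 0 by DESeq2, and 1, Vm26Aa, had an unadjusted p under 0.05. Over all genes, 315 of 8312 had an unadjusted p under 0.05 in the same edgeR comparison. Vm26Aa was 0.18 ± 0.08 higher in mutant 2 (unadjusted p = 0.0322, adjusted p = 1), with an interval of 2 SE from 0.03 to 0.34. The intervals were -0.17 to 0.23 for Vm26Ac, -0.22 to 0.10 for Vm32E, -0.14 to 0.25 for Vm34Ca, -0.01 to 0.19 for fs(1)N, -0.07 to 0.10 for fs(1)M3 and -0.05 to 0.20 for ndl. They were wider for Vml (-0.24 to 0.42) and Vm26Ab (-0.65 to 0.38), and -0.24 to 0.15 for psd.

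Within groups, some members varied together from library to library and others did not. After the group means were removed from the log2 values of the 9 libraries, 33 of the 45 pairs of members had a positive correlation and 12 a negative one. Among Vm26Ab, Vm32E, Vm34Ca, Vml and psd, a set picked after seeing these values, the correlations ran from 0.65 to 0.97 over 10 pairs. The highest were Vm32E with psd (0.97) and Vml with psd (0.96). Vm26Aa, the cluster neighbour of Vm26Ab, had correlations of -0.63 to -0.36 with these 5 genes. Vm26Ac also stood apart from several of them, with 0.01 to Vm26Ab and 0.12 to both Vm34Ca and Vml, and had 0.53 with Vm26Aa. fs(1)M3 had -0.57 with Vm26Ac, -0.13 with Vm34Ca and -0.09 with fs(1)N, and 0.72 with ndl. Replicate 3 of mutant 1 lay above its group mean by 0.52 for Vm26Ab, 0.36 for Vml, 0.20 for psd, 0.14 for Vm32E and 0.11 for Vm34Ca on the log2 scale, and below it by -0.10 for Vm26Aa. The same libraries and scaling stand behind all these values, so the correlations describe 9 libraries and carry no test.

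Brain and S2 cells serve as a low-expression reference, and the members were far lower in brain than in ovary. In the 6 brain libraries together, Vm26Ac had 0 counts, Vml 1, psd 2, Vm34Ca 8, Vm26Ab 9 and Vm26Aa 19. With 0 counts in the wild-type brain libraries, and against a limit of 3 counts over that group, wild-type ovary was at least 2197-fold higher for Vm26Ac, at least 12568-fold higher for Vml and at least 4117-fold higher for psd. Vm26Aa, with 2 counts in wild-type brain, was 116658-fold higher in ovary (95% exact counting interval 32294 to 963294). These bounds and intervals cover counting error only.

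Vm32E, fs(1)M3, fs(1)N and ndl passed the filter in brain at low levels. Vm32E held 1.95 and 1.93 CPM in wild-type brain, 1.88 and 1.67 CPM in mutant 1, and 1.65 and 1.32 CPM in mutant 2. fs(1)M3 held 2.78 and 2.82 CPM, 2.28 and 2.42 CPM, and 3.90 and 2.51 CPM in the same order. Scaled to library size, the summed wild-type counts were 99.0-fold higher in ovary for Vm32E (95% exact counting interval 85.0 to 116) and 175-fold for fs(1)M3 (154 to 199), and the ratios were 2233 for fs(1)N and 1932 for ndl. The opposite-strand neighbour of fs(1)M3, CG6067, held 7.53 CPM in wild-type brain. Vm32E lies within Ca-beta on the same strand, and the brain level of Ca-beta was not analysed here. How many Ca-beta reads the brain value of Vm32E holds is therefore not known.

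None of the 4 members tested in brain was called by edgeR or DESeq2 in either mutant. Over 9880 genes, edgeR called 2.66% in mutant 1 and 2.96% in mutant 2 in either direction. Of the 4 members, 0 had an unadjusted p under 0.05, beside 922 of the 9880 genes in mutant 1 and 1123 in mutant 2. The log2 changes in mutant 1 were -0.13 ± 0.20 for Vm32E, 0.53 ± 0.62 for fs(1)N, -0.26 ± 0.21 for fs(1)M3 and 0.11 ± 0.45 for ndl. Replicate 1 of mutant 2 had more counts than any other brain library for several ovary genes, with 16 for Vm26Aa, 6 for Vm34Ca, 36 for fs(1)N and 175 for fs(1)M3. The germline gene osk was also highest there, at 0.803 CPM, beside 0.0254 CPM in the other mutant 2 brain library and at most 0.372 CPM in the other genotypes. Whether ovary RNA reached that library was not tested. Without this replicate the mutant 2 change of fs(1)N turned from 1.01 ± 0.59 to -0.31 ± 0.63 and that of fs(1)M3 from 0.20 ± 0.21 to -0.16 ± 0.20, with no call either way.

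In S2 cells, 6 of the 10 genes had a row in the table, and the other 4 were not analysed here. Each S2 value is that of the isoform of the gene with most counts. Over the 6 libraries, psd had 31 counts, fs(1)N and ndl 5 each, Vm34Ca 3, fs(1)M3 2 and Vm26Ab 1. Second isoforms, left out of these values, held 17 counts for psd and 1 for Vm26Ab. psd held 0.774 and 0.152 CPM in untreated cells, 0.903 and 1.19 CPM after 24 h of auxin, and 0.554 and 0.415 CPM after 48 h. None passed the filter, so none was tested, beside 0.0979% of the 7152 tested genes called after 24 h and 0.112% after 48 h. Those shares ignore the pairing of S2 replicate numbers. With replicate number added to the fit as a block, 75 genes were called higher and 63 lower after 24 h. After 48 h that fit called 110 higher and 81 lower, again of 7152. A response of the vitelline membrane genes to loss of CG11247 was not detectable at this depth in S2 cells.

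**Figure D4:**
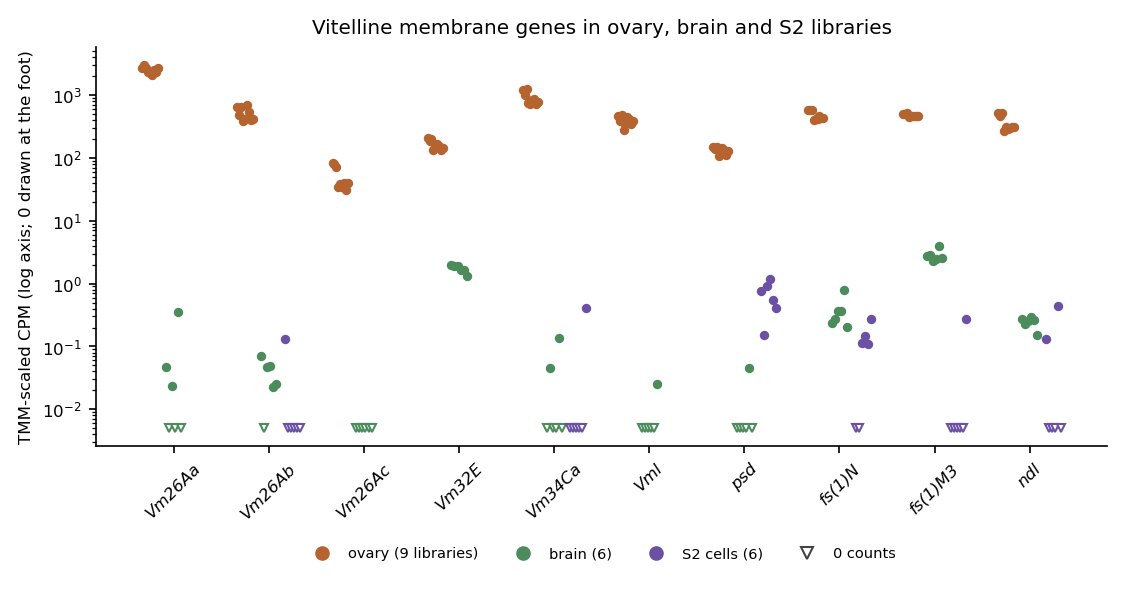
Level of each gene in every ovary, brain and S2 library, in TMM-scaled CPM on a log axis; open triangles at the foot mark libraries with 0 counts, and 4 genes have no S2 points. All ovary points lie above all brain and S2 points of the same gene, and psd is the S2 gene with the highest level at 1.19 CPM.

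Of 8 other genes listed for eggshell structure, assembly or processing, 7 were tested, with median log2 changes of -0.26 and -0.15. Of these 7, 2 fell in mutant 1 (11.2% of all genes) and 1 in mutant 2 (7.35% of all genes). Cad99C, a cadherin of the follicle cell microvilli that touch the forming layer, fell from 182.7 CPM to 118 CPM in mutant 1 (-0.64 ± 0.08, edgeR adjusted p = 2.6e-04) and 126.5 CPM in mutant 2 (-0.53 ± 0.08, adjusted p = 0.0011). dec-1, an eggshell gene whose products are needed for a stable chorion, fell from 3691 CPM to 3081.5 CPM in mutant 1 (-0.26 ± 0.08, adjusted p = 0.0324) and changed by -0.15 ± 0.08 in mutant 2. clos, which encodes the oocyte partner of fs(1)N and fs(1)M3, was at 333 CPM in wild type and changed by -0.06 ± 0.07 and -0.04 ± 0.07. yellow-g and yellow-g2, known for a role in cross-linking of the layer, were at -0.47 ± 0.27 and -0.71 ± 0.36 in mutant 1 and at -0.49 ± 0.27 and -0.72 ± 0.36 in mutant 2, none called. Pxt, needed for follicle development, and Femcoat, an eggshell protein gene, were not called, and Pxd was not tested.

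Of 12 genes tested that read or carry the positional cues of the layer, 1 fell and 3 rose in mutant 1 (11.2% and 12.2% of all genes), and 0 fell and 1 rose in mutant 2 (7.35% and 8.77% of all genes), with a median of 0.04 in each. tsl, the terminal cue held in the layer, fell from 4.55 to 2.55 CPM in mutant 1 (-0.84 ± 0.20, edgeR adjusted p = 0.0114) and was 3.44 CPM in mutant 2 (-0.40 ± 0.19, adjusted p = 0.164). spz, the ligand of the Toll receptor, rose from 62.6 to 84.5 CPM in mutant 1 (0.43 ± 0.09, adjusted p = 0.00685) and to 82.1 CPM in mutant 2 (0.39 ± 0.09, adjusted p = 0.0157). The protease gene gd and the serpin gene Spn27A rose in mutant 1 (0.26 ± 0.09 and 0.32 ± 0.07). pip, the sulfotransferase that acts on Vml, held 8.81 CPM in wild type and changed by -0.16 ± 0.15 and -0.20 ± 0.15, and the receptors Tl and tor were not called.

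The chorion genes, made by the same follicle cells at a later stage, are listed for reference. Of these, 4 of 9 fell in mutant 1 and 5 of 9 in mutant 2, with medians of -0.94 and -1.01. Over all genes tested, 11.2% were called lower in mutant 1 and 7.35% in mutant 2. Of the yolk genes and their receptor, Yp1, Yp2 and yl fell in each mutant and Yp3 did not pass the test, with medians of -0.57 and -0.52 over the 4.

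Follicle cell regulators were mixed. Of 14 tested, 4 fell and 1 rose in each mutant, with medians of -0.10 and 0.01. The shares over all genes were 11.2% lower and 12.2% higher in mutant 1, and 7.35% and 8.77% in mutant 2. ct, a homeodomain factor of follicle cells, fell from 25.9 to 11.1 CPM in mutant 1 (-1.22 ± 0.08, edgeR adjusted p = 6.0e-07) and 11.6 CPM in mutant 2 (-1.16 ± 0.08, adjusted p = 9.7e-07). tj, a factor of somatic gonad cells, fell by 0.43 ± 0.06 and 0.29 ± 0.06, and br, known for patterning of the follicle layer, by 0.35 ± 0.10 and 0.40 ± 0.10. Fas3, a junction protein of early and polar follicle cells, rose by 0.49 ± 0.07 and 0.60 ± 0.07. ttk was the fourth gene that fell, by 0.23 ± 0.05 and 0.21 ± 0.05.

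Markers of the other cells in an ovary sample are counted here beside the shares over all genes tested. Those shares were 11.2% called lower and 12.2% higher in mutant 1, and 7.35% and 8.77% in mutant 2. Of 16 germline markers, 2 fell and 1 rose in mutant 1, 3 fell and 0 rose in mutant 2, and the medians were 0.04 and 0.01. Their summed level was 6528 to 6889 CPM in wild type, 6759 to 6944 CPM in mutant 1 and 6676 to 6920.5 CPM in mutant 2, with osk at 1285 CPM in mutant 1 and 1297 CPM in mutant 2. Of 11 tested muscle markers, which the ovarian muscle sheath expresses, 1 rose in mutant 1 and 5 in mutant 2. The summed level of the 12 listed muscle markers was 930.1 to 1058 CPM in wild type, 1126 to 1184 CPM in mutant 1, and 1352.5, 1522 and 1043 CPM in the mutant 2 libraries, with Act88F at or near 0. Their part in the lower vitelline membrane values was not tested, and the fit without the first and second mutant 2 libraries cannot answer it, since it leaves a single mutant 2 library. That fit called 4 of the 10 members lower (Vm26Ac, Vm34Ca, fs(1)N and ndl), beside 139 of 8553 genes. Of oviduct and spermatheca markers 2 of 4 tested rose in mutant 1, and of fat body markers 1 of 4 rose in mutant 1. Of hemocyte markers 1 of 5 rose in mutant 2, and of brain markers 1 of 3 fell in mutant 1. These lists held no other calls.

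**Figure D5:**
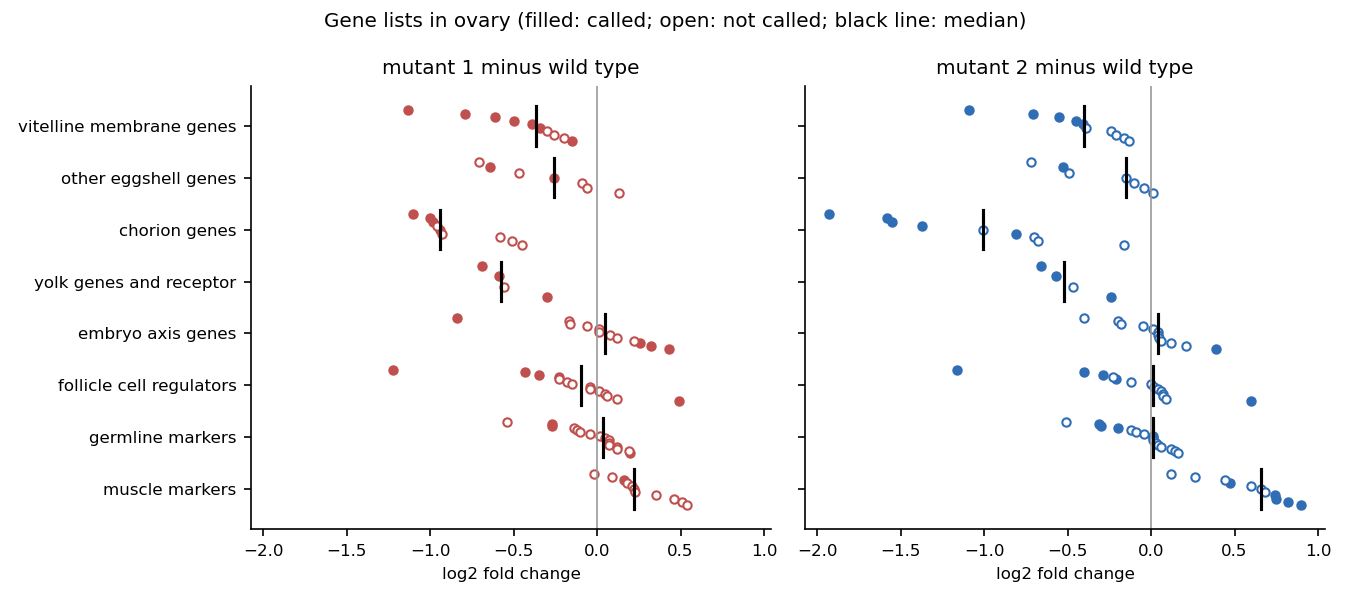
Log2 fold change of every tested gene of 8 lists in mutant 1 and mutant 2 ovaries; filled points were called, open points were not, and the black line is the median of the list. The vitelline membrane genes have medians of -0.36 and -0.40, the chorion genes -0.94 and -1.01, the germline markers 0.04 and 0.01, and the muscle markers 0.22 and 0.66.

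Among 6457 other genes with a mean of at least 10 CPM, those most like the mean log2 CPM of the 10 members over the 9 ovary libraries were NaCP60E (Pearson r = 0.972), Tim10 (0.970), PH4alphaEFB (0.961) and CG11576 (0.955). CG5789 and yellow-k (both 0.952), brk (0.948), Trpm (0.946), CG6145 and Aats-ala-m (both 0.942) followed. PH4alphaEFB, a collagen prolyl hydroxylase gene, stood at 56.4 ± 1.44 CPM in wild type, 22.8 ± 0.873 CPM in mutant 1 and 26.8 ± 2.24 CPM in mutant 2. brk, a transcriptional repressor of Dpp target genes, stood at 14.9 ± 0.785, 8.41 ± 0.969 and 7.96 ± 0.472 CPM. Tim10, with 67.5, 63.8 and 63.7 CPM, followed the same order of libraries with a change of only -0.08 ± 0.05 in each mutant, not called. The profiles most opposite were CG11382 (r = -0.993), CG16947 and CG32022 (both -0.963), and CG11382 rose from 9.52 ± 1.05 CPM to 18.3 ± 2.76 and 17.1 ± 1.64 CPM. The points share libraries and the wild-type contrast, so these values describe likeness over 9 libraries only.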

How the data were processed

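Per the submitters' processing notes, brain and ovary reads were handled with Trim Galore 0.6.2 and Salmon 1.2.1, and all samples list build dm3. Per the labels' protocols, tissue libraries were rRNA-depleted and strand-specific, and S2 libraries were made with a 3' end kit. The authors deposited estimated counts per gene for brain and ovary, of which 9.73% and 7.31% were not whole, and whole-number counts per transcript for S2 cells. How the S2 counts were made is not given here by any source.

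Estimated counts were rounded, and the S2 value of a gene is that of its isoform with most counts overall. Genes were tested with edgeR 4.0.16 (R 4.3.3) using the quasi-likelihood F test (TMM scaling, filterByExpr, robust dispersions), all groups of a system in 1 fit without a replicate term. Adjusted p-values are Benjamini-Hochberg over all genes tested in that system, with calls under 0.05. CPM are TMM-scaled. The SE is the log2 change divided by the square root of F. Levels per kb use the longest transcript in BDGP6. Likeness used log2(CPM + 1). Ovary replicates of a group correlated at 0.990 to 0.997 on the log scale. The counts of each replicate pair differed beyond sampling noise (a chi-square of at least 5.51 per degree of freedom). No pair therefore looked like a single library counted again, and the fit treated all 9 as separate. This cannot show that they came from separate dissections.

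The 10 members and all lists were chosen with earlier results of these data known. Named genes were the members, CG11247, up to 4 called genes of each list per ovary comparison by size of change, the 6 neighbours of the Vm26A cluster, and the 10 most and 3 least similar profiles. Further list genes (clos, yellow-g, yellow-g2, Pxt, Femcoat, pip, Tl, tor, ttk, Yp3, Act88F, osk and elav) and the overlapping genes MCU and CG6067 were named after their values were seen. S2 replicate numbers behaved as pairs (correlation of deviations 0.62 to 0.75), but no member was tested there. Alternatives were RLE scaling, no low-count filter, DESeq2 1.42.0, a replicate block, only the compared groups, each library left out, coding length, summed isoforms, and, added after seeing the data, leaving out both mutant 2 ovary libraries with the most muscle RNA.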

Additional observations from a re-analysis of the deposited data

How the results depend on the processing

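The count of members called lower in mutant 1 ovary ran from 6 to 8 when single libraries were left out. Over all genes, those fits called 449 to 1041 lower. In mutant 2 the count of members stayed at 5, where 196 to 587 of all genes were called lower. DESeq2 called 6 members lower in mutant 2, beside 738 of 9140 genes. The fit with only the groups compared also called 6 there, beside 766 of 8155 genes. In brain and the direct comparison of mutants the count of called members was 0 under every alternative run. In S2 cells no member was tested in the filtered fits, so their counts of 0 say nothing about stability. Vm26Ac, Vm34Ca, fs(1)N and ndl stayed called in both mutants under each alternative run, with changes of -1.19 to -1.08, -0.70 to -0.54, -0.52 to -0.48 and -0.84 to -0.74 in mutant 1. In mutant 1, fs(1)M3 also lost its call with no low-count filter (adjusted p = 0.0859) and with only the groups compared (0.0534), where the cause was not tested.

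Replicate numbers did not pair ovary libraries: deviations of same-numbered libraries correlated at -0.29 to 0.22. In brain, same-numbered wild-type and mutant 1 libraries correlated at 0.39, and same-numbered pairs with mutant 2 at -0.04. With 2 brain libraries per group, pairing there was not settled. The replicate block moved brain calls from 188 higher and 75 lower to 207 and 87 in mutant 1. In mutant 2 brain they moved from 220 and 72 to 248 and 88. With the replicate block in ovary, 6 members were called in mutant 1, fs(1)M3 being lost (edgeR adjusted p = 0.0512), and 5 in mutant 2. Over all 8312 genes, that fit called 928 lower in mutant 1 and 645 lower in mutant 2.

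When single libraries were left out, uncalled changes turned sign, all still uncalled. Between the mutants the ranges were -0.29 to 0.18 for Vm26Ab, -0.03 to 0.15 for Vm26Ac, -0.14 to 0.01 for Vm32E, -0.03 to 0.12 for Vm34Ca, -0.06 to 0.29 for Vml and -0.14 to 0.07 for psd (0.02 in another such fit). In brain they were -0.03 to 0.26 for ndl in mutant 1 and, in mutant 2, -0.31 to 1.66 for fs(1)N, -0.16 to 0.48 for fs(1)M3 and -0.72 to 0.08 for ndl. Over all genes, the calls of mutant 1 were 1018 higher and 935 lower in the full fit, 631 and 532 without wild-type replicate 1, 547 and 449 without wild-type replicate 2, and 575 and 463 without mutant 1 replicate 3. For mutant 2 they were 729 and 611, but 437 and 236 without wild-type replicate 1, 415 and 209 without wild-type replicate 2, and 494 and 388, 408 and 196, and 479 and 257 without mutant 2 replicates 1, 2 and 3. Per kb of coding sequence, 9 of the 10 wild-type levels moved by more than 1 SD, with Vm26Aa at 6555 CPM per kb, and fs(1)N and fs(1)M3 traded places. The small counts of the members in brain and S2 cells limit what could be detected there.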

Other observations

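With group means removed, 14 of 20 other eggshell and yolk genes correlated positively with Vm26Aa and negatively with Vm26Ab over the 9 ovary libraries, 4 the other way round, and 2, Cp18 (-0.06 and -0.33) and Femcoat (-0.15 and -0.21), negatively with both. For example, Vm26Aa had correlations of 0.77 with Cp36, 0.61 with Cp38, 0.80 with Cp7Fc, 0.69 with yellow-g and 0.70 with yellow-g2, where Vm26Ab had -0.42, -0.19, -0.66, -0.32 and -0.64. clos had the reverse pattern, with -0.57 to Vm26Aa and 0.83 to Vm26Ab. Cp15 also leaned that way, with -0.47 to Vm26Aa and 0.47 to Vm26Ab. Cp36, Cp38 and Cp7Fc encode chorion proteins, as does Cp15. These pairs were chosen after their values were seen, share libraries and scaling, and carry no test. Vm26Aa and Vm26Ab had -0.63 with each other, so opposite signs with a further gene partly follow from that value. The share of such opposite signs over all genes is not given here.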
